A study of Homo sapiens with 6 samples.

Results

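The epithelial and mesenchymal state genes were followed in RNA-seq counts of A2780 cells with and without CDK12. They were chosen by name as 10 of the 60483 genes listed: CDH1 and EPCAM on the epithelial side, CDH2, VIM and FN1 on the mesenchymal side, and the transcription factors SNAI1, SNAI2, TWIST1, ZEB1 and ZEB2. The 6 libraries were sequenced from cultured A2780, an established human ovarian carcinoma line, 3 from parental cells (WT) and 3 from a CDK12 knock-out (KO). KO was a single homozygous clone, obtained with CRISPR/Cas9 aimed at exon 1 of CDK12 after more than 1 round of transfection and selection, so CDK12 loss cannot be told apart from other features of that clone. The paper reports that the clone held more DNA and more chromosomes per cell than parental cells. Its karyotype also listed gains and losses of chromosomes, among them losses of chromosomes 7, 10 and 18. TWIST1 lies on chromosome 7, VIM and ZEB1 on chromosome 10, and CDH2 on chromosome 18. The part these differences have in the values below was not tested. The labels give no drug treatment, batch or time point, and they do not say whether the 3 libraries of a group came from separate cultures, so p-values measure only the spread between these libraries.

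Epithelial cells hold together through adherens junctions, in which E-cadherin (CDH1) binds its like on the next cell and is tied to actin by catenins. In epithelial-mesenchymal transition (EMT), SNAI, ZEB and TWIST factors bind E-box sites, repress CDH1 and other epithelial genes, and N-cadherin (CDH2), the intermediate filament vimentin (VIM) and the matrix protein fibronectin (FN1) rise. Carcinoma cells can also sit between these states and carry markers of both.

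Of the 10 genes, 6 had enough reads to be tested between KO and WT, and VIM was the gene with the largest change. Calls required that edgeR's quasi-likelihood test gave an adjusted p under 0.05 with a log2 fold change beyond 1 in either direction, a rule that 8.30% of the 16198 genes tested met upwards and 7.73% downwards. By this rule VIM was called down-regulated and none of the other 5 tested genes was called. By adjusted p alone, FN1 and TWIST1 were higher in KO and VIM, ZEB1, EPCAM and SNAI2 were lower, beside 31.9% of all tested genes higher and 32.0% lower. In each of these 6 genes the KO values did not overlap the WT values, as was the case in 66.3% of all tested genes. The median log2 fold change was -0.45 over the 6 genes and 0.00 over all genes tested. The remaining 4, CDH1, CDH2, SNAI1 and ZEB2, were at or near 0 in both groups.

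**Figure D1:**
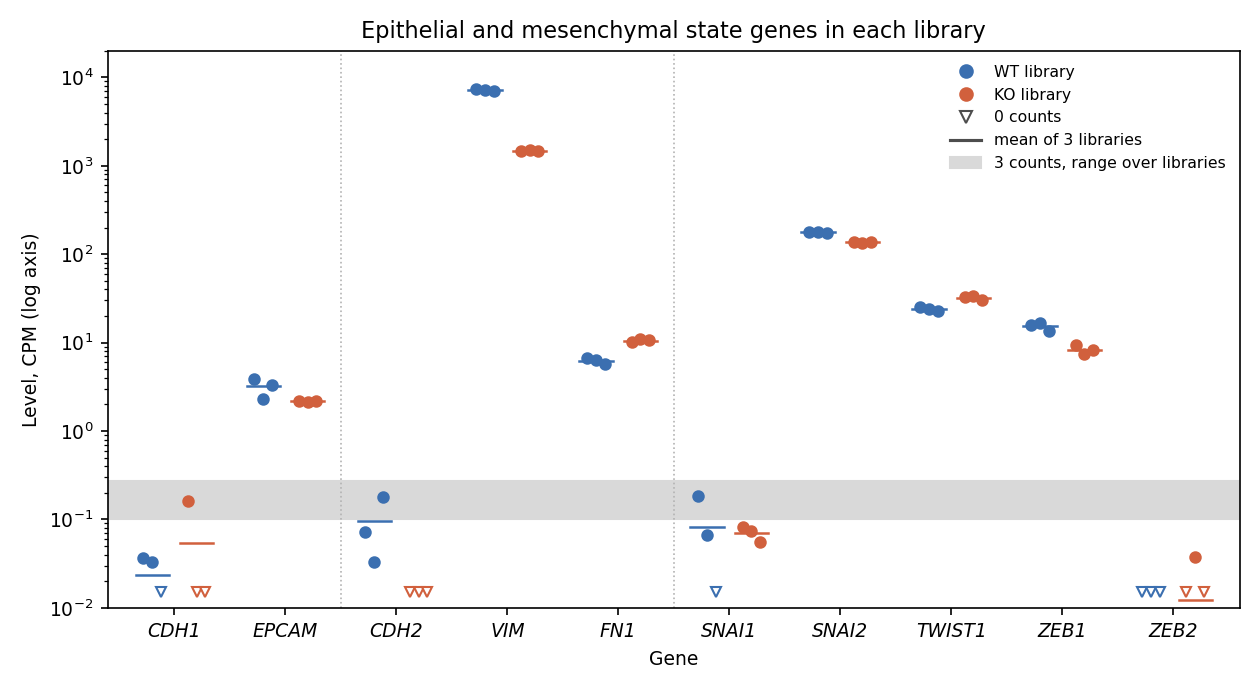
Level of each gene in each library, in counts scaled to the size of the library (CPM) on a log axis, with WT in blue, KO in red, lines at the means of 3 libraries, open triangles for 0 counts and a grey band at the level of 3 counts. VIM fell from 7228 to 1487 CPM, and the points of CDH1, CDH2, SNAI1 and ZEB2 lie in or below the band in every library.

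Total counts ranged from 11098400 in WT replicate 3 to 30899045 in WT replicate 2, and 3 counts, taken as the floor of a library, were 0.270 CPM in the first and 0.10 CPM in the second. These floors cover counting error only. The RNA of CDK12, a kinase of RNA polymerase II, averaged 115 ± 11.1 CPM (SD, n = 3) for WT against 97.9 ± 4.63 CPM for KO, a log2 fold change of -0.23 (SE 0.0582, adjusted p = 0.00082), and a count over the whole gene does not test small changes in exon 1. Of 10 ovarian carcinoma markers, 3 were tested and none was called, and MUC16, WFDC2, ESR1 and KRT7 had at most 3 counts in every library. The summed level of the list was 66.9 to 71.4 CPM in WT and 114 to 119 CPM in KO, most of it KRT18. The 3 tested, KRT8, KRT18 and MSLN, were higher in KO at the adjusted p. PAX8, WT1 and FOLR1 were not tested and had 14, 8 and 22 counts in WT against 4, 2 and 2 in KO. Of 8 fibroblast markers, which mesenchymal-like cells also express, 7 were tested and 5 called down-regulated, beside 7.73% of all genes tested. Of the 5, DCN and LUM had 0 counts in every KO library and passed the filter through WT alone. COL1A2 was lower but not called (log2 fold change -0.80), and COL3A1 did not pass the test (-0.01, adjusted p = 0.863). FAP had at most 3 counts in every library, and the sum was 11101 to 11469 CPM in WT and 8535 to 8814 CPM in KO. Leukocyte markers summed to 0.70 to 1.2 CPM in WT and 0.730 to 1.34 CPM in KO with PTPRC and CD3E at 3 counts or fewer. CD14, the 1 leukocyte marker tested, was called up (log2 fold change 1.02, adjusted p = 0.0156), but not without WT replicate 2 (0.70) or KO replicate 2 (0.68). Among those not tested, CD68 had 20 counts in WT and 2 in KO, LYZ 8 and 4, and ITGAM 6 and 10. The endothelial markers summed to 0.146 to 0.367 CPM in WT and 0.730 to 0.928 CPM in KO with PECAM1, CDH5, KDR and TEK at 3 counts or fewer. VWF, the 1 tested, was called up (log2 fold change 2.00, adjusted p = 0.000104). It had 2, 7 and 3 counts in WT against 18, 22 and 10 in KO and passed the filter through KO alone. The part that markers of other cells have in the values below was not tested.

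CDH1, which encodes E-cadherin (GRCh38 chr16:68737292-68835537, plus strand), was not detectable above the floor in WT. Its counts were 1, 1 and 0 in the WT libraries and 4, 0 and 0 in the KO libraries. The groups overlap, and a fit without the filter on low counts, over 31569 genes, gave an adjusted p of 0.639. EPCAM (chr2:47345158-47387601, plus strand), a surface glycoprotein of epithelial cells, was present at a low level in all libraries. It had 3.90, 2.33 and 3.33 CPM in WT and 2.20, 2.11 and 2.19 CPM in KO, from 37 to 107 counts per library. The lowest WT library lay just above the highest KO library. EPCAM was 1.47-fold lower in KO, with means of 3.19 ± 0.793 and 2.17 ± 0.0446 CPM (log2 fold change -0.53, 95% confidence interval -0.91 to -0.16, adjusted p = 0.0119). Passing the test rested on WT replicate 1, without which the log2 fold change was -0.29 and the adjusted p 0.217.

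CDH2, which encodes N-cadherin (chr18:27932879-28177946, minus strand), was no more readily seen than CDH1. It had 2, 1 and 2 counts in WT and 0, 0 and 0 in KO, at or under the floor in every library, and in the fit without a filter its adjusted p was 0.0861. Neither of the classical cadherins whose exchange marks EMT was therefore detectable at this depth in a way that would allow a fold change between WT and KO.

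VIM (chr10:17228241-17237593, plus strand) was among the most abundant RNAs of WT cells and fell in KO. Its level was 7404, 7202 and 7077 CPM in the WT libraries and 1483, 1500 and 1479 CPM in the KO libraries. All WT libraries lay far above all KO libraries, and the spread within each group was small. The mean was 7228 ± 165 CPM in WT and 1487 ± 11.4 CPM in KO, 4.86-fold lower (log2 fold change -2.28, SE 0.0530, 95% confidence interval -2.39 to -2.17, adjusted p = 2.98e-27). VIM took 0.728%, 0.699% and 0.709% of all counts in WT and 0.151%, 0.153% and 0.15% in KO. Per kilobase of exon, its rank among 56321 genes was 16 in WT and 59 in KO, so that it remained an abundant RNA in the KO clone. The long non-coding gene VIM-AS1, which overlaps VIM on the opposite strand, was lower as well, with 195, 186 and 71 counts in WT and 99, 83 and 58 in KO (log2 fold change -0.93, adjusted p = 3.15e-07). Another overlapping non-coding gene, ENSG00000234961, had 56 counts in WT and 11 in KO and was not tested. The library kit keeps strand, but the strand setting of the counting is not given in the sources used here, so reads of VIM and of these genes may not be fully separated.

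FN1 (chr2:215360440-215436073, minus strand), the gene of fibronectin, was low in both groups and moved the other way. It had 6.78, 6.30 and 5.67 CPM in WT and 10.2, 10.9 and 10.6 CPM in KO. Each KO library was above each WT library. The mean rose 1.69-fold, from 6.25 ± 0.559 to 10.5 ± 0.373 CPM (log2 fold change 0.73, SE 0.103, 95% confidence interval 0.52 to 0.94, adjusted p = 2.46e-07), which is below the fold threshold. The mesenchymal genes that were detected thus changed in opposite directions, with VIM lower and FN1 higher in the same libraries.

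The promoters of these genes with the largest fall and the largest rise among those tested are printed here to compare their sequence. RefSeq promoter entries on GRCh38.p14 matched 5 of the 10 genes (CDH2, VIM, FN1, ZEB1 and ZEB2, with 12 start sites). The 250 bases before the start are printed 5′ to 3′ on the strand of the gene, and capitals mark GC boxes (GGGCGG on either strand), E-boxes of the kind SNAI and ZEB factors bind (CAGGTG on either strand) and AP-1 sites (TGANTCA on either strand).
VIM, chr10:17227991-17228240, plus strand: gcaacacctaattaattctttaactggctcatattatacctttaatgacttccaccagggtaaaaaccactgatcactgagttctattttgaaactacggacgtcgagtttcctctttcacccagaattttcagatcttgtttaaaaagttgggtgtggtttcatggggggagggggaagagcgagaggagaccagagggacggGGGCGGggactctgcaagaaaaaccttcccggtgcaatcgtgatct
FN1, chr2:215436069-215436318, minus strand: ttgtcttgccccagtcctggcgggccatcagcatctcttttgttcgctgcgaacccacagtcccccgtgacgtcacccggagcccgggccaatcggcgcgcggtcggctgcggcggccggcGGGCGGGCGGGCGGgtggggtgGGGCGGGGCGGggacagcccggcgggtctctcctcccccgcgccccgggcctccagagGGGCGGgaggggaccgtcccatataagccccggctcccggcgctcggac
The VIM window was 46.0% GC and held 1 GC box. The FN1 window was 76.4% GC and held 6 GC boxes, of which several overlap. Neither window held CAGGTG, any other E-box (CANNTG, which includes CAGGTG) or TGANTCA. Among 35116 promoter windows of the same length, 42.6% held GGGCGG, 17.5% held CAGGTG, 61.8% held CANNTG and 6.57% held TGANTCA. Such matches describe the letters of a window and not the binding of a factor.

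Among the 5 EMT transcription factors of the 10 genes, SNAI2 and TWIST1 were the most abundant per kilobase, ZEB1 was intermediate, and SNAI1 and ZEB2 were near 0. SNAI2 (chr8:48917598-48921740, minus strand), the zinc-finger repressor Slug, had 177, 177 and 173 CPM in WT and 137, 134 and 136 CPM in KO. The groups were clearly apart for a small change. It was 1.29-fold lower in KO, 176 ± 2.50 against 136 ± 1.44 CPM (log2 fold change -0.37, 95% confidence interval -0.47 to -0.28, adjusted p = 2.28e-08). TWIST1 (chr7:19020991-19117636, minus strand), a basic helix-loop-helix factor, had 25.4, 23.8 and 22.8 CPM in WT and 32.8, 33.6 and 30.3 CPM in KO. Every KO library lay above the WT libraries. It was 1.34-fold higher, 24.0 ± 1.30 against 32.2 ± 1.75 CPM (log2 fold change 0.42, 95% confidence interval 0.28 to 0.55, adjusted p = 2.1e-06).

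ZEB1 (chr10:31318495-31529814, plus strand), a zinc-finger homeobox repressor of CDH1, fell in KO. It had 15.9, 16.6 and 13.7 CPM in WT and 9.31, 7.46 and 8.25 CPM in KO. The groups did not overlap. The mean was 1.85-fold lower in KO, 15.4 ± 1.54 against 8.34 ± 0.929 CPM (log2 fold change -0.91, SE 0.0965, 95% confidence interval -1.11 to -0.72, adjusted p = 7.51e-10). The interval includes the fold threshold, and without KO replicate 1 the log2 fold change was -1.01 and ZEB1 was called down-regulated too. ZEB1-AS1, the non-coding gene read from the opposite strand at this locus, changed the other way, with 175, 187 and 80 counts in WT and 243, 231 and 169 in KO (log2 fold change 0.52, adjusted p = 8.53e-05). As with VIM, the strand setting is not given, so reads of ZEB1 and ZEB1-AS1 may not be fully separated.

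SNAI1 (chr20:49982980-49988886, plus strand), the repressor Snail, had 5, 2 and 0 counts in WT and 2, 2 and 1 in KO. ZEB2 (chr2:144364364-144521057, minus strand), the paralog of ZEB1, had 0 counts in all WT libraries and 0, 1 and 0 in KO. Apart from the 5 counts of SNAI1 in WT replicate 1, both genes were at or under the floor, and no fold change could be given. Their adjusted p-values in the fit without a filter were 0.740 and 0.496. Each has 1 pseudogene in the annotation, SNAI1P1 and ZEB2P1, listed at 0 counts.

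ZEB1 is the gene with the most RefSeq start sites here, 7 of the 12, and CAGGTG was found before 2 of them. The window with a pair of such E-boxes is printed to show them beside the VIM and FN1 windows above, with capitals as there.
ZEB1, chr10:31318966-31319215, plus strand: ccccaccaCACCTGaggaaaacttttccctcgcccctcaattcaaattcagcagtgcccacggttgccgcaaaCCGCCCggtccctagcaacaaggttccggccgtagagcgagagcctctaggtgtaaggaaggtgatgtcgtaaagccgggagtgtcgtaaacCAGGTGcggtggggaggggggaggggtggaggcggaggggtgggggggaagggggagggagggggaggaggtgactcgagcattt
This window was 62.4% GC. The counts are per gene and do not tell which start was in use.

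**Figure D2:**
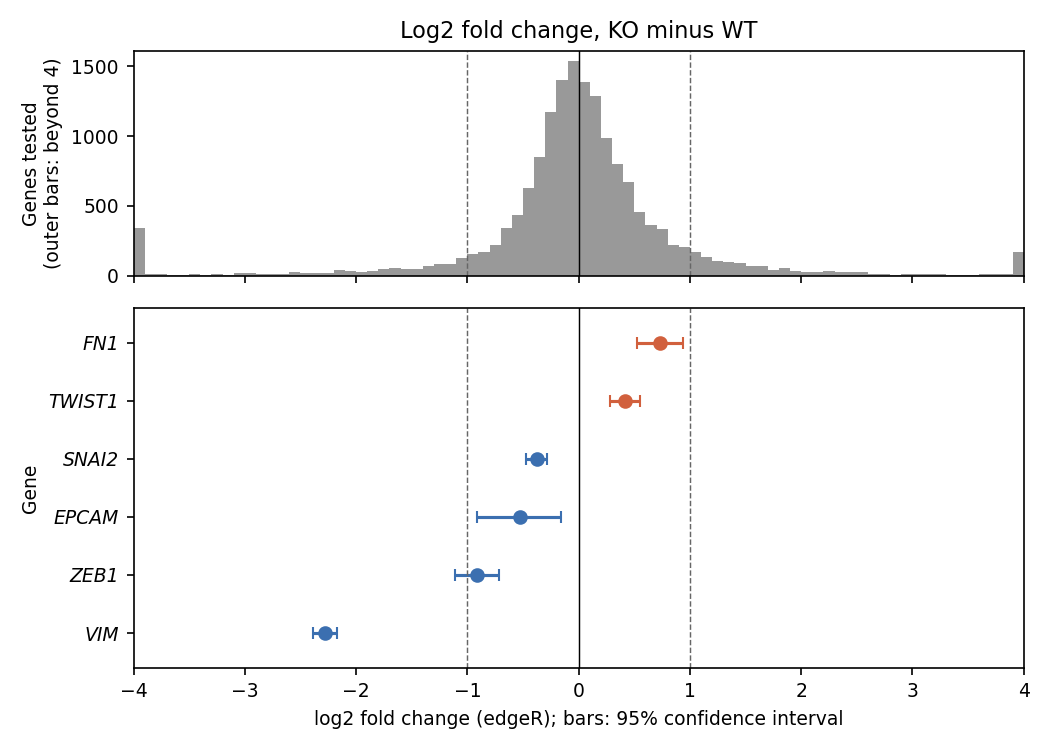
Log2 fold change, KO minus WT, of all 16198 genes tested (upper panel, with the outer bars holding genes beyond 4 in either direction) and of the 6 genes tested here with 95% confidence intervals (lower panel), dashed lines marking the fold threshold of 1. VIM lies at -2.28, ZEB1 at -0.91 reaches the line with its interval, and FN1 and TWIST1 lie to the right of 0.

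Levels were compared between genes as CPM per kilobase of exon, over all exons annotated for a gene. In WT the order was VIM (1396 ± 31.9), SNAI2 (53.5 ± 0.761), TWIST1 (12 ± 0.649), ZEB1 (1.78 ± 0.178), EPCAM (1.31 ± 0.326) and FN1 (0.363 ± 0.0324), where ZEB1 and EPCAM overlapped. In KO the order was the same, with VIM at 287 ± 2.21, SNAI2 at 41.3 ± 0.439, TWIST1 at 16.1 ± 0.876, ZEB1 at 0.964 ± 0.107, EPCAM at 0.891 ± 0.0183 and FN1 at 0.612 ± 0.0217 CPM per kilobase, and ZEB1 and EPCAM again overlapped. Genes with many annotated isoforms, such as FN1, have their level understated on this scale. The 3 genes whose log2 CPM over the 6 libraries followed VIM most closely were ENSG00000243818, ZNF136 and CDH10. Of 16197 genes compared, 1040 had a Pearson r above 0.99 with VIM, so this likeness singles out little.

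The genes beside VIM were lower in KO too. TRDMT1, a tRNA methyltransferase and the nearest tested gene before VIM at 26.2 kb, fell from 15.6 ± 0.506 to 6.22 ± 0.206 CPM (log2 fold change -1.34, adjusted p = 3.35e-14). ST8SIA6, a sialyltransferase and the nearest tested gene after it at 77.8 kb, had 159, 210 and 80 counts in WT and 1, 2 and 1 in KO (adjusted p = 2.69e-19). Both neighbours thus moved with VIM, the second to the floor. Within 2 Mb on either side of VIM, 19 genes were tested, of which 6 were called down-regulated and 0 up-regulated, with a median log2 fold change of -0.69. The shares over all genes tested were 7.73% down and 8.30% up. The other 4 called genes are named after their values were seen. CUBN, the endocytic receptor cubilin, fell from 391 ± 10.2 to 68.8 ± 2.66 CPM (log2 fold change -2.51), and HACD1, a dehydratase of fatty acid elongation, from 52.7 ± 4.42 to 7.34 ± 0.230 CPM (log2 fold change -2.84). TMEM236 fell from 30.4 ± 2.11 to 0.583 ± 0.149 CPM. MRC1, the macrophage mannose receptor, had 1158, 1238 and 452 counts in WT and 2, 1 and 0 in KO, a ratio of 961 with a counting interval of 328 to 4662. ST8SIA6 and MRC1 passed the filter through WT alone, so the share called in this window depends on the filter. The called genes lay between -0.1 and 0.58 Mb of the VIM start, a span that also held VIM-AS1, STAM-DT and STAM, which were not called (log2 fold changes -0.93, -0.43 and -0.82).

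Called genes also lay near the other tested genes except ZEB1, beside 8.30% of all genes tested called up and 7.73% down. Within 2 Mb, 0 of 21 tested genes were called up and 2 down around EPCAM, 1 of 14 up and 0 down around FN1, 1 of 11 up and 1 down around SNAI2, 3 of 10 up and 1 down around TWIST1, and 0 of 13 in either direction around ZEB1. These windows are given as values, and the difference between them and that of VIM was not tested.

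The wider programme was described with 12 lists of 203 genes, of which 141 could be tested. In these, 16 genes (11.3%) were called up and 33 (23.4%) down, with a median log2 fold change of -0.11. Of the 33, 12 had at most 3 counts in every KO library and passed the filter through WT alone. Of the 16 called up, 2 had at most 3 counts in every WT library and passed it through KO alone. The shares called therefore depend on the filter. Each list below is read beside the shares of all genes given above.

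In the adherens junction list, 3 of 11 tested genes were called up and 1 down, with a median log2 fold change of 0.24. NECTIN3, a nectin that pairs cells ahead of cadherins, rose from 0.437 ± 0.103 to 12.1 ± 0.610 CPM, 27.6-fold. CTNNA2 and NECTIN4 rose by log2 fold changes of 1.62 and 1.04 from low levels, 0.154 and 0.277 CPM in WT. Without KO replicate 2, CTNNA2 had too few reads to be tested. NECTIN4 did not pass the test without WT replicate 2 (adjusted p = 0.0917) or without KO replicate 1 (adjusted p = 0.0957). JUP, the plakoglobin shared with desmosomes, fell from 35.2 ± 0.984 to 14.5 ± 0.620 CPM (log2 fold change -1.28, adjusted p = 4.66e-17). The catenins that bind E-cadherin were abundant where CDH1 was near 0, and CTNNA1 was 292 CPM in WT and 345 in KO (adjusted p = 2.81e-05), and CTNNB1 was 404 CPM in WT and 420 in KO (adjusted p = 0.279). Both were chosen for their role.

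Of 19 other cadherins, 6 were tested, all 6 were lower in KO at the adjusted p and 5 were called down. Of these 5, 3 had at most 3 counts in every KO library and passed the filter through WT alone, and CDH15 was not called without KO replicate 3 (log2 fold change -0.99). CDH10 had 345, 367 and 126 counts in WT and none in KO, which puts it at least 71.6-fold lower against the highest KO floor. CDH17 fell from 40 counts to 1, a ratio of 40.5 with a counting interval of 6.86 to 1639, and CDH22 from 79 counts to 3, a ratio of 26.7 with an interval of 8.79 to 132. The single KO count of CDH17 was in KO replicate 2, and 2 of the 3 of CDH22 in KO replicate 3. CDH26 had 0.980 ± 0.252 CPM in WT and 0.274 ± 0.107 in KO (log2 fold change -1.87, adjusted p = 4.02e-05). The sixth tested cadherin, CDH24, named after its values were seen, was not called, with 29.7 ± 1.49 CPM in WT and 25.4 ± 3.61 in KO (log2 fold change -0.20, adjusted p = 0.0248), and it did not pass the test without WT replicate 3 (adjusted p = 0.0762) or without KO replicate 3 (adjusted p = 0.248).

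Tight junction genes went both ways, with 1 of 12 tested called up, 3 called down and a median of 0.07. CLDN11, a claudin of tight junctions, fell from 42.1 ± 1.44 to 0.159 ± 0.108 CPM, 265-fold. CGNL1 and CGN, which link junctions to the cytoskeleton, fell by log2 fold changes of -1.46 and -1.09, while MARVELD3, a tight junction membrane protein, rose by 1.82 (adjusted p = 4.82e-10). In the desmosome list 1 of 5 tested genes was called, PERP, which rose from 6.62 ± 0.657 to 21.2 ± 1.44 CPM. Of 5 simple epithelial keratins, 2 were tested and neither was called, though both were higher at the adjusted p. KRT18 was 59.9 ± 1.95 CPM in WT and 103 ± 2.72 in KO, and KRT8 7.33 ± 0.262 and 10.9 ± 0.495. KRT8 has 51 listed pseudogenes, which held 545 counts in WT and 978 in KO, so its level is uncertain. KRT18 has 67, which held 161 counts in WT and 182 in KO, against 4103 and 7169 for KRT18 itself.

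Among genes of the epithelial surface and polarity, 1 of 10 tested was called up and 2 down, with a median of 0.26. AP1M2, an adaptor subunit for basolateral sorting, fell from 205 counts to 3 (2 of them in KO replicate 1), a ratio of 69.2 with a counting interval of 23.3 to 338. CD24, a surface glycoprotein, fell from 1.18 ± 0.319 to 0.106 ± 0.125 CPM (log2 fold change -3.39, and -4.66 without KO replicate 1), and PRSS8, the protease prostasin, rose from 4.47 ± 0.589 to 10.9 ± 0.543 CPM (log2 fold change 1.30).

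Of 8 tested epithelial transcription and splicing factors, 4 were called up and 2 down, and the median log2 fold change was 1.27. Of the 4, OVOL2 had at most 3 counts in every WT library and passed the filter through KO alone. Of the 2, CDX2 had 0 counts in every KO library and passed it through WT alone. GRHL3, a grainyhead factor of surface epithelia, had 4, 0 and 0 counts in WT and 27, 26 and 27 in KO. OVOL2, a zinc-finger repressor of ZEB1 in epithelia, had 3, 1 and 3 counts in WT and 25, 34 and 13 in KO. Both rose from the floor to about 1 CPM in KO, with log2 fold changes of 4.19 and 3.27 (adjusted p = 1.88e-08 and 1.74e-07). These folds rest on few WT counts: without WT replicate 1, which held all 4 counts of GRHL3, its fitted value was 7.68 against a group at 0, and without WT replicate 2 it was 3.41, while OVOL2 was 2.68 without WT replicate 2. KLF4 rose from 1.03 ± 0.136 to 5.01 ± 0.279 CPM. CDX2, an intestinal homeobox factor, went from 62, 68 and 17 counts in WT to 0 in all KO libraries, at least 12-fold lower. The other 2 called genes, which the naming rule does not reach and which are named after their values were seen, were RBM47 (log2 fold change 1.84), an RNA-binding splicing factor, and GRHL1 (log2 fold change -1.97), so that grainyhead factors moved in opposite directions.

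The other EMT transcription factors had 2 of 13 tested genes called up and 4 down, with a median of -0.35. MSX2, 1 of the 2 called up, was not called without WT replicate 1 (log2 fold change 0.98). TCF4, a basic helix-loop-helix partner of TWIST1, fell from 341 ± 9.53 to 20.8 ± 1.18 CPM, 16.4-fold (adjusted p = 4e-33). HMGA2, a chromatin protein that acts upstream of SNAI1 and TWIST1, fell from 764 ± 26.6 to 98.1 ± 4.36 CPM, 7.79-fold (adjusted p = 1.19e-30). FOXC1 fell from 4.85 ± 0.276 to 0.751 ± 0.214 CPM, whereas the homeobox gene MSX1 rose from 0.355 ± 0.317 to 12 ± 1.83 CPM (log2 fold change 5.50). The falls of TCF4 and HMGA2 were larger in fitted fold than those of SNAI2 and ZEB1. Among 19 corepressors and regulators of these factors, all tested, none was called in either direction, while 5 were higher and 9 lower at the adjusted p.

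The list of the mesenchymal cytoskeleton and surface, to which VIM is closest in function, had 2 of 17 tested genes called up, 1 called down and a median of -0.22. MYL9, a myosin light chain, fell from 104 ± 2.82 to 32.9 ± 1.13 CPM (log2 fold change -1.66). The adhesion molecules NCAM1 and L1CAM rose from 5.00 ± 1.09 to 24.2 ± 1.55 CPM and from 2.35 ± 0.116 to 9.76 ± 1.84 CPM. At the adjusted p alone 9 genes were lower and 6 higher, so the list moved both ways, as VIM and FN1 did.

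Among matrix genes other than collagens, 12 of 16 tested genes (75.0%) were called down and 2 called up. Of the 12, 6 had at most 3 counts in every KO library and passed the filter through WT alone. The median log2 fold change was -6.08 as fitted and -2.33 when genes with 0 counts in a group were set to their bound. POSTN, the matricellular protein periostin, had 1102, 1155 and 416 counts in WT and 0, 1 and 0 in KO, a ratio of 2705 with a counting interval of 485 to 106898. FBN2, LOX and TGFBI had no count in any KO library, and were at least 7.02-fold, 5.52-fold and 5.62-fold lower. Among the other genes, chosen after their values were seen, VCAN (versican) fell from 281 ± 20.7 to 3.87 ± 0.744 CPM, CCN1 from 36.6 ± 2.22 to 0.572 ± 0.158 CPM and CCN2 from 19.3 ± 1.65 to 0.353 ± 0.0649 CPM. The genes called up were FBN1, 66.1 ± 6.22 to 140 ± 8.21 CPM, and BGN, with 0 counts in WT and 15, 16 and 7 in KO. FBN1 lay at the fold threshold without WT replicate 1 (log2 fold change 1.00). BGN passed the filter through KO alone, and without KO replicate 2 it had too few reads to be tested. FN1, a matrix gene by function, went with FBN1 and BGN and not with the majority of the list.

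In TGF-beta signalling, the pathway that induces SNAI and ZEB factors, 0 of 22 tested genes were called up and 3 down, and the median was -0.13. The ligand gene TGFB2 had 539, 597 and 233 counts in WT and 0, 1 and 1 in KO, a ratio of 693 with a counting interval of 191 to 5726. LTBP1, which holds latent TGF-beta in the matrix, fell from 44 ± 1.86 to 4.11 ± 0.30 CPM, and INHBA, an activin subunit, from 0.958 ± 0.0501 to 0.409 ± 0.0390 CPM. The ligand gene TGFB1, named for its role, was higher, at 97.8 ± 3.75 CPM in WT and 151 ± 6.22 in KO (log2 fold change 0.63, adjusted p = 1.23e-12). Of the receptors, TGFBR1 was lower (log2 fold change -0.61, adjusted p = 2.41e-11) and TGFBR2 did not pass the test (0.07, adjusted p = 0.387). TGFB1 and TGFB2 thus changed in opposite directions in the same KO libraries.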

How the data were processed

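RNA was measured in 3 WT and 3 KO libraries, grouped by the genotype in the labels. The deposited values are raw counts per gene, made by the authors with STAR, GRCh38 and HTSeq. Tool versions, annotation release, strand setting and treatment of multiply mapped reads are not given in the sources used here. Gene positions and exon lengths were taken from GENCODE release 44, matched without version for 56321 of 60483 genes.

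Genes were filtered with filterByExpr (minimum count 10, minimum total 15), scaled with TMM and tested, two-sided, with the quasi-likelihood test of edgeR 4.0.16 in R 4.3.3, with Benjamini-Hochberg adjustment over 16198 genes. The biological coefficient of variation was 4.35%. Exact permutation tests of 3 libraries against 3 cannot go below p = 0.1, and all 6 genes tested here gave that value. CPM used TMM-scaled totals. The fit was checked on simulated counts. Alternatives used limma 3.58.1 (voom, the tool of the study) and DESeq2 1.42.0, other scalings and filters, a test against the fold threshold, thinned libraries and the omission of each library.

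The genes and lists were chosen with earlier results of these data known. Named are all 10 genes, their nearest and overlapping genes, and up to 4 called genes per list with the largest change. Some genes of these lists are not reported by name here.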

Additional observations from a re-analysis of the deposited data

How the results depend on the processing

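The log2 fold changes kept their sign under all 14 alternatives, ranging from -2.30 to -2.25 for VIM, -1.01 to -0.71 for ZEB1, -0.78 to -0.29 for EPCAM, -0.39 to -0.34 for SNAI2, 0.39 to 0.46 for TWIST1 and 0.69 to 0.78 for FN1. VIM was called in each. The number of the 10 genes called down ranged from 1 to 2 when a library was left out, with ZEB1 added without KO replicate 1, and EPCAM passed the test in each omission but that of WT replicate 1. Tested against the fold threshold itself, VIM alone of the 6 passed.

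With at least 10 counts required in every library, 568 genes were called up and 684 down, and in the 12 lists 8 and 12. Genes that are near 0 in a group drop out under this filter. So do genes under 10 counts in a single library, such as MARVELD3 with 38, 41 and 6 counts in WT. The test against the fold threshold called 756 genes up, against 1345. Libraries thinned to the smallest total left 10 list genes called up, against 16. No list gene past the adjusted p changed sign in any alternative. No paired analysis was possible because the library numbers in the labels run from 1 to 6 and pair none. Depth limits what can be said of CDH1, CDH2, SNAI1 and ZEB2, for which at most 5 counts per library were seen.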
